A study of Canis lupus familiaris with 22 samples.

Results

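Among 18 canine invasive urothelial carcinoma (iUC) samples, the 6 that were richest in transcripts of fibrous connective tissue were set against the 6 that were poorest in them. The sides were chosen by a stroma score, the mean of the centred log2 values of *COL1A1*, *COL1A2*, *COL3A1*, *DCN*, *LUM* and *POSTN*. The 6 remaining iUC samples lay between the sides, and 4 normal bladder samples completed the 22 arrays of the series. The tumours were high grade biopsies taken by cystoscopy before therapy, and the normal bladders came from healthy dogs of matched age. RNA was hybridized to Affymetrix Canine 2.0 arrays, 1 array for each sample, and the labels call the samples of a group biological replicates. Each deposited value is a log2 value centred on the median of its probe set over the 22 arrays. A positive value is thus above the series' median for that gene, and no value is an expression level, so that genes are compared between samples and not with each other.

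The stroma of a carcinoma is the tissue between the nests of tumour cells, made of fibroblasts, vessels, immune cells and the matrix they lie in. Fibroblasts secrete fibrillar collagens, proteoglycans that coat the fibrils, and matricellular proteins that bind cells to matrix without bearing load. Bladder wall holds such tissue too, in the lamina propria below the urothelium and between bundles of detrusor smooth muscle. In RNA from whole tissue, fewer cells of a type and less RNA per cell cannot be told apart.

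The score ran from -1.54 to 1.36 over the iUC samples. The stroma-rich side held iUC replicates 6 (1.36), 12 (1.33), 13 (1.05), 8 (0.91), 18 (0.75) and 2 (0.50), and the first tumour outside it was replicate 17 at 0.33. The stroma-poor side held replicates 7 (-1.54), 14 (-1.09), 5 (-0.94), 16 (-0.91), 15 (-0.89) and 1 (-0.74). The first tumour outside the poor side was replicate 4 at -0.72, so that edge was narrow. All 4 normal bladders, at 1.71 to 3.25, scored above every tumour. These values chose the sides and are given without a test, as are the 6 score genes.

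The score genes did not move together in every tumour. iUC replicate 12 had the highest tumour values of *COL1A1* (2.68) and *COL1A2* (2.43), the chains of type I collagen, and of *POSTN* (3.15), which encodes periostin. Its values of *DCN*, decorin, and *LUM*, lumican, were -1.21 and -0.19. The other 5 stroma-rich tumours lay at 1.27 or above for *DCN* and at 0.73 or above for *LUM*. Replicate 12 thus entered the rich side on collagen and periostin alone, and results that rest on it are given below with and without it.

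**Figure D1:**
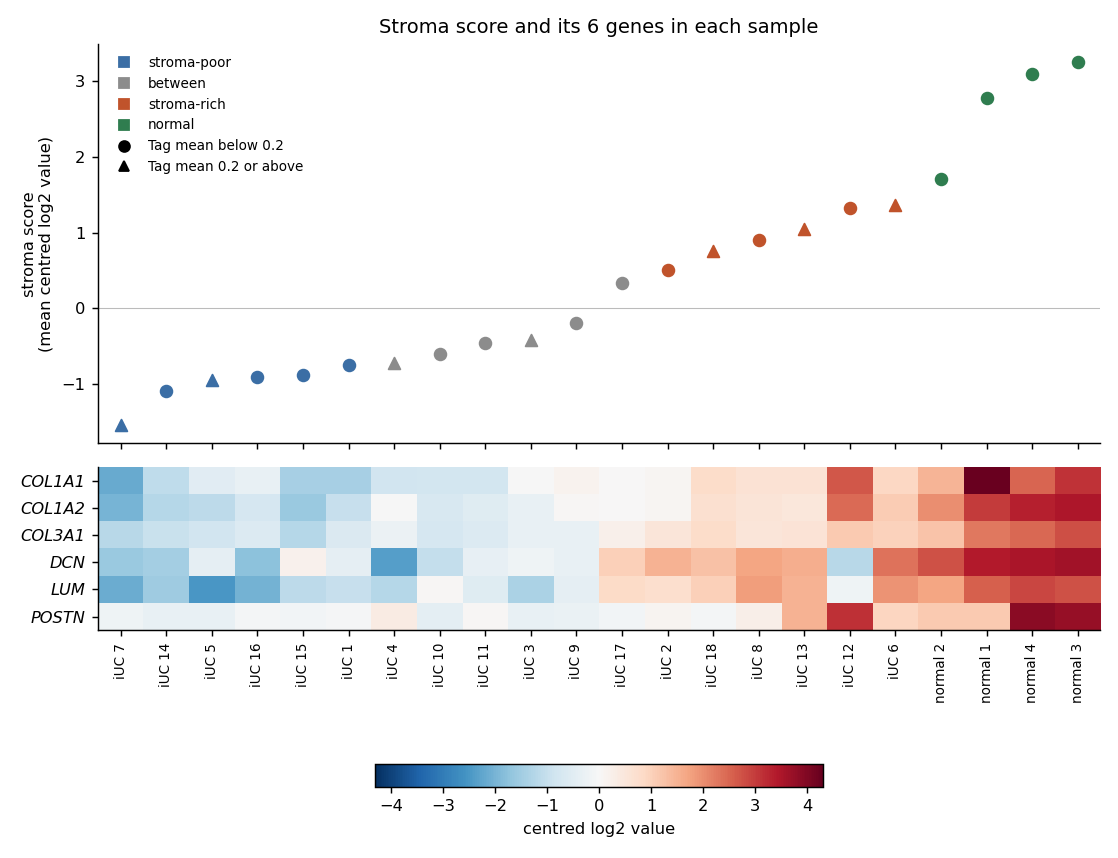
Upper panel, the stroma score (mean centred log2 value) of each sample, ordered from lowest to highest, with colours for the sides and triangles for arrays whose Tag mean was 0.2 or above. Lower panel, the centred log2 value of each of the 6 score genes in the same samples. The 4 normal bladders lie above all 18 tumours, and iUC replicate 12 combines high *COL1A1*, *COL1A2* and *POSTN* with low *DCN* and *LUM*.

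The arrays carry Tag probe sets, which report control transcripts and no dog gene. The mean of 17 of them was 0.2 or above on 3 of 6 stroma-rich arrays (replicates 6, 13 and 18), on 2 of 6 stroma-poor arrays (replicates 5 and 7), on 2 of the 6 between the sides and on 0 of 4 normal arrays. The 7 probe sets for *GAPDH* and actin that serve as controls overlapped between the sides, with means of -1.10 to 0.38 in the rich and -1.28 to 0.33 in the poor. Because Tag signal was spread over both sides, each main result was also fitted with Tag class as a block and taken within each class.

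Of 15109 genes outside the score, 3 were called higher in the stroma-rich tumours, 0.0199% of those tested, and 0 were called lower. A gene was called where limma gave an adjusted p no higher than 0.05 and the means differed 2-fold or more. At an unadjusted p under 0.05 there were 320 genes, 2.12% of those tested, of which 216 were higher and 104 lower. That limit itself passes a share of about 0.05 where no gene differs, so the count is not a surplus. The sides were selected on genes measured on the same arrays, so an adjusted p here ranks genes by how closely they followed the matrix score and is not independent evidence of a response. Of all genes tested, 5825 had a positive difference (38.6%) and the median difference was -0.03 on the log2 scale. That share is the one to set beside the counts of positive differences in the lists below.

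*SERPINF1* followed the score most closely. It encodes pigment epithelium-derived factor, a secreted serpin that fibroblasts make and that is known to restrain vessel growth. Its values were 0.90, 1.10 and 1.73 (lowest, median and highest) in the stroma-rich tumours and -0.98, -0.74 and -0.33 in the stroma-poor ones. The 6 tumours between the sides ran from -0.64 to 0.05, and the normal bladders stood at 3.64, 2.86, 4.61 and 3.99. No stroma-rich value came near a stroma-poor one, and every normal bladder lay above every tumour of both sides. *SERPINF1* rose by 1.91 on the log2 scale (SE 0.15, n = 6 and 6, limma adjusted p = 0.0005). The difference was 1.86 among arrays of high Tag signal and 1.85 among those of low Tag signal.

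*FAP*, fibroblast activation protein, is a cell surface protease used as a marker of tumour-associated fibroblasts. It lay at 0.38, 0.69 and 1.25 in the stroma-rich tumours and at -0.73, -0.57 and -0.44 in the stroma-poor tumours, where the values were tightly grouped. *FAP* rose by 1.31 (SE 0.14, n = 6 and 6, limma adjusted p = 0.0067), with 1.37 and 1.23 within the high and low Tag classes. Its pair of probe sets differed in size, at 0.68 and 1.94. The normal bladders were at 0.79, 0.65, 2.60 and 2.76, so that 2 of them lay within the range of the stroma-rich tumours.

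*VCAM1* had the largest difference of all genes tested. It encodes an adhesion molecule that binds leukocyte integrins, made by endothelium and by some stromal cells. The stroma-rich tumours were at 0.35, 1.30 and 3.17 and the stroma-poor tumours at -1.97, -1.84 and -0.79. Of the 6 stroma-poor values, 5 lay at -1.71 or below, and replicate 16 alone stood at -0.79. *VCAM1* rose by 3.12 (SE 0.40, n = 6 and 6, limma adjusted p = 0.0248), a fold change of 8.67. The difference was 3.73 within the high Tag class and 2.55 within the low one. Its call did not hold after quantile normalization between arrays, where the difference was 3.27 and the adjusted p 0.61, nor without any one of 8 of the 12 tumours, where the adjusted p ran to 0.11.

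**Figure D2:**
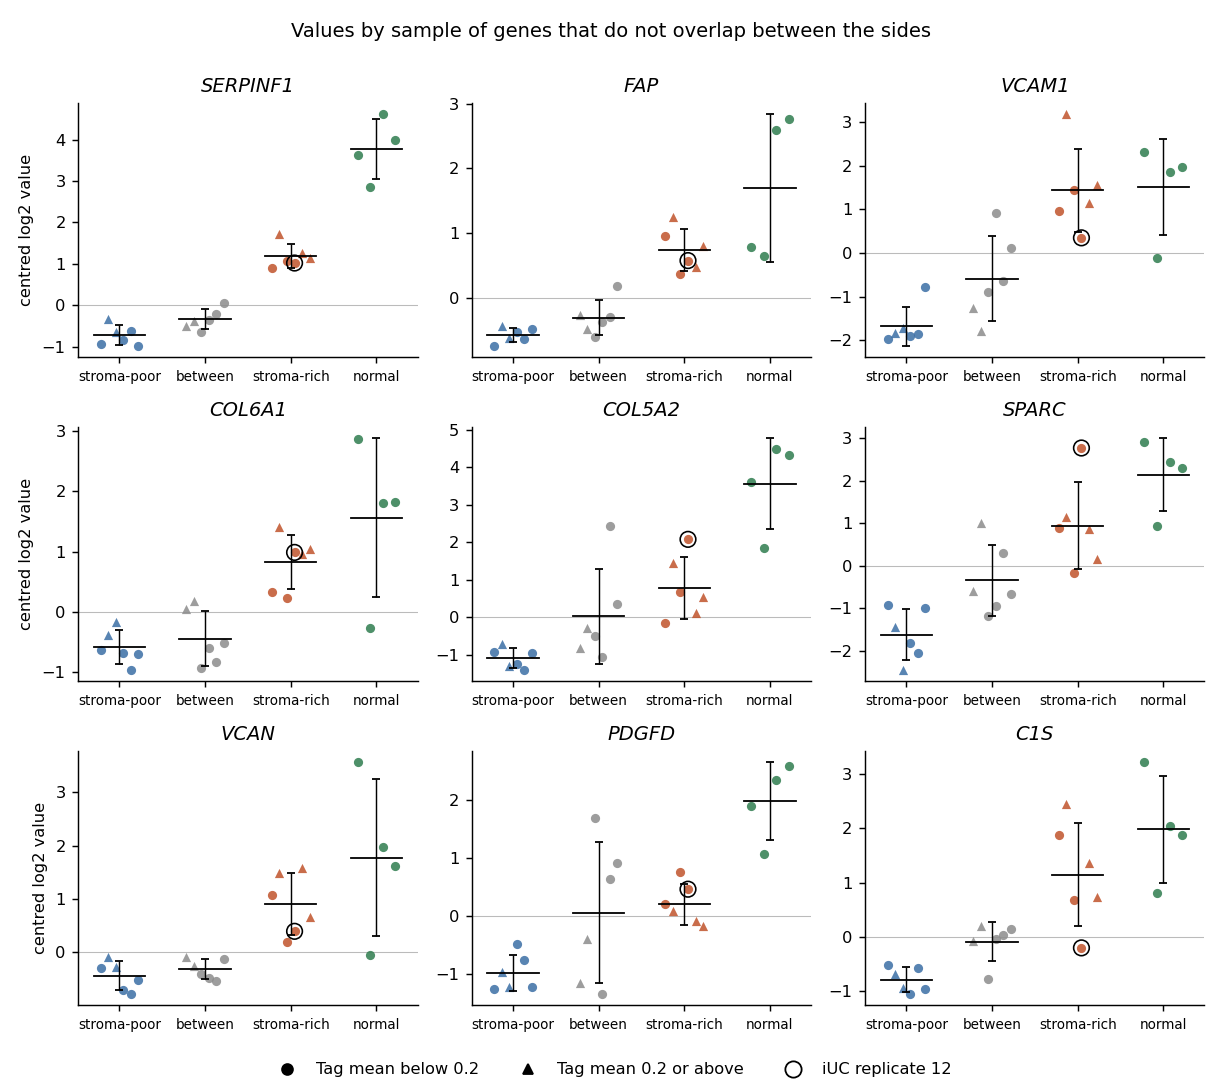
Centred log2 values of 9 genes in each sample, by side, with triangles for arrays of a Tag mean of 0.2 or above and a ring around iUC replicate 12. Horizontal lines are means and bars are SD. In each panel the 6 stroma-rich tumours lie above the 6 stroma-poor ones, most widely in *VCAM1*, and the tumours between the sides mostly have intermediate values.

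A wider description takes every gene whose 6 stroma-rich values all lay above the 6 stroma-poor values. There were 28 such genes, 0.185% of those tested, and 6 with the reverse order, 0.0397%. Of the 28, 14 were on one of the 30 gene lists described below and 14 were on none. The lists together held 443 of the 15109 genes tested. For 26 of the 28 every normal bladder lay above every stroma-poor tumour, and for 14 also above every stroma-rich tumour. Over all genes tested, every normal bladder lay above every stroma-poor tumour for 8.01% and above every stroma-rich tumour for 8.51%. For 3 of the 6 genes of reverse order every normal bladder lay below every stroma-poor tumour, a count not made over all genes. The normal bladders also scored above every tumour, so these counts describe the genes that the score picked out and are not a separate result. With a fold change of 2 or more and no test, 68 genes were higher (0.45%) and 13 lower (0.086%).

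Collagens outside the score form other fibrils, filaments and sheets. Of 16 measured collagen genes, 0 were called, 2 did not overlap between the sides and 4 were 2-fold or more higher, with a median difference of 0.13 that was 0.07 with Tag class as a block. *COL6A1*, a chain of the beaded filaments of type VI collagen, was at 0.24, 0.97 and 1.40 in the rich and at -0.95, -0.66 and -0.16 in the poor. Its difference was 1.41 (SE 0.21, limma adjusted p = 0.071), and with Tag class as a block it was called at 1.32 (adjusted p = 0.0065). *COL5A2*, a chain of type V collagen, which helps set the width of type I fibrils, differed by 1.88 (SE 0.33, limma adjusted p = 0.16). The partner chain *COL5A1*, named after its values were seen, had -0.20 (SE 0.16), so the chains of that collagen did not follow the score alike on this array.

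Type IV collagen forms the sheet under epithelium and around vessels. *COL4A1* was at -0.50, 0.25 and 2.87 in the rich and at -2.67, -1.74 and 0.15 in the poor, and *COL4A2* at -0.50, 0.27 and 2.17 against -1.76, -1.18 and 0.06. In both genes the top value belonged to replicate 12 and the sides overlapped. The differences were 2.19 and 1.43, and 1.73 and 1.07 without replicate 12. Of 26 basement membrane and integrin genes 0 were called and the median was -0.03, a value that turned to 0.07 with quantile normalization. *LAMA4*, a laminin chain of vessel walls, was the only one of these that was 2-fold higher, at 1.20, and 0.72 without replicate 12.

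Among genes that trim and cross-link collagen, none of 19 was called or 2-fold different. Their median of 0.06 was 0.11 with Tag class as a block, 0.20 on arrays of high Tag signal and -0.01 without replicate 12, so no order between this list and the collagens was stable. *PCOLCE*, which enhances the removal of the procollagen C-propeptide, was the one gene of the list without overlap, at 0.08 to 0.98 in the rich and -0.56 to 0.03 in the poor. The lysyl oxidase relatives *LOXL4* (0.49) and *LOXL2* (0.45) overlapped widely between the sides.

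Among 9 small leucine-rich proteoglycans and versican, 8 had a positive difference and the median was 0.16. The median was 0.04 with Tag class as a block, -0.01 within the high and 0.04 within the low Tag class, and 0.41 with quantile normalization. The list mean was 0.38 to 0.75 in the 7 tumours of high Tag signal, on whichever side they lay, and -0.36 to 0.11 in the 11 of low Tag signal. *VCAN*, versican, a large proteoglycan that binds hyaluronan, lay at 0.20, 0.87 and 1.59 in the rich and at -0.77, -0.40 and -0.09 in the poor. Its difference was 1.34 (SE 0.24, limma adjusted p = 0.17). *BGN*, biglycan, the nearest relative of decorin, had 0.30 (SE 0.21) and *KERA*, keratocan, 0.37 (SE 0.56), both with overlapping sides.

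Of 16 elastic fibre and microfibril genes 0 were called, 2 did not overlap and the median was 0.09, with 0.25 on arrays of low Tag signal. *FBN1*, fibrillin, the backbone of microfibrils, was at -0.04 to 1.24 in the rich and at -0.60 to -0.21 in the poor, with a difference of 1.05 (SE 0.19). Its 4 probe sets ranged from 0.09 to 2.65, so the size for the gene depends on which of them is read. *FBLN1*, fibulin, also had 1.05 (SE 0.45), but replicate 16 of the poor side, at 1.48, was above every rich tumour. *EFEMP1*, another fibulin, had 0.89 (SE 0.30).

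Matricellular proteins had the highest median of the 30 lists, 0.70, and 13 of 14 members had a positive difference. Without replicate 12 their median was 0.70 and that of interferon response genes 0.82. Within the low Tag class, which includes replicate 12, their median was 0.57, below macrophage (0.67) and interferon response genes (0.66). The place at the top was thus not stable. Only 1 of the 14, *SPARC*, did not overlap, 4 were 2-fold or more higher, and 0 were called. *SPARC*, osteonectin, which binds collagen as fibrils form, was at -0.17, 0.88 and 2.77 in the rich and at -2.45, -1.64 and -0.93 in the poor. The difference of 2.57 (SE 0.45, limma adjusted p = 0.16) was 2.20 without replicate 12, which held the top value. *SPARCL1*, its relative in vessels and fibroblasts, had -0.56, 1.78 and 2.36 against -1.66, -1.36 and -0.36, a difference of 2.41 (SE 0.50). *THBS4*, a thrombospondin of tendon and muscle matrix, had 1.69 (SE 0.44). That difference was 0.53 on arrays of high Tag signal and 2.58 on arrays of low Tag signal. The mean of the 14 genes was -0.24 to 0.92 in the rich tumours and -0.67 to -0.33 in the poor, without overlap, while the normal bladders reached 0.71 to 1.97.

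**Figure D3:**
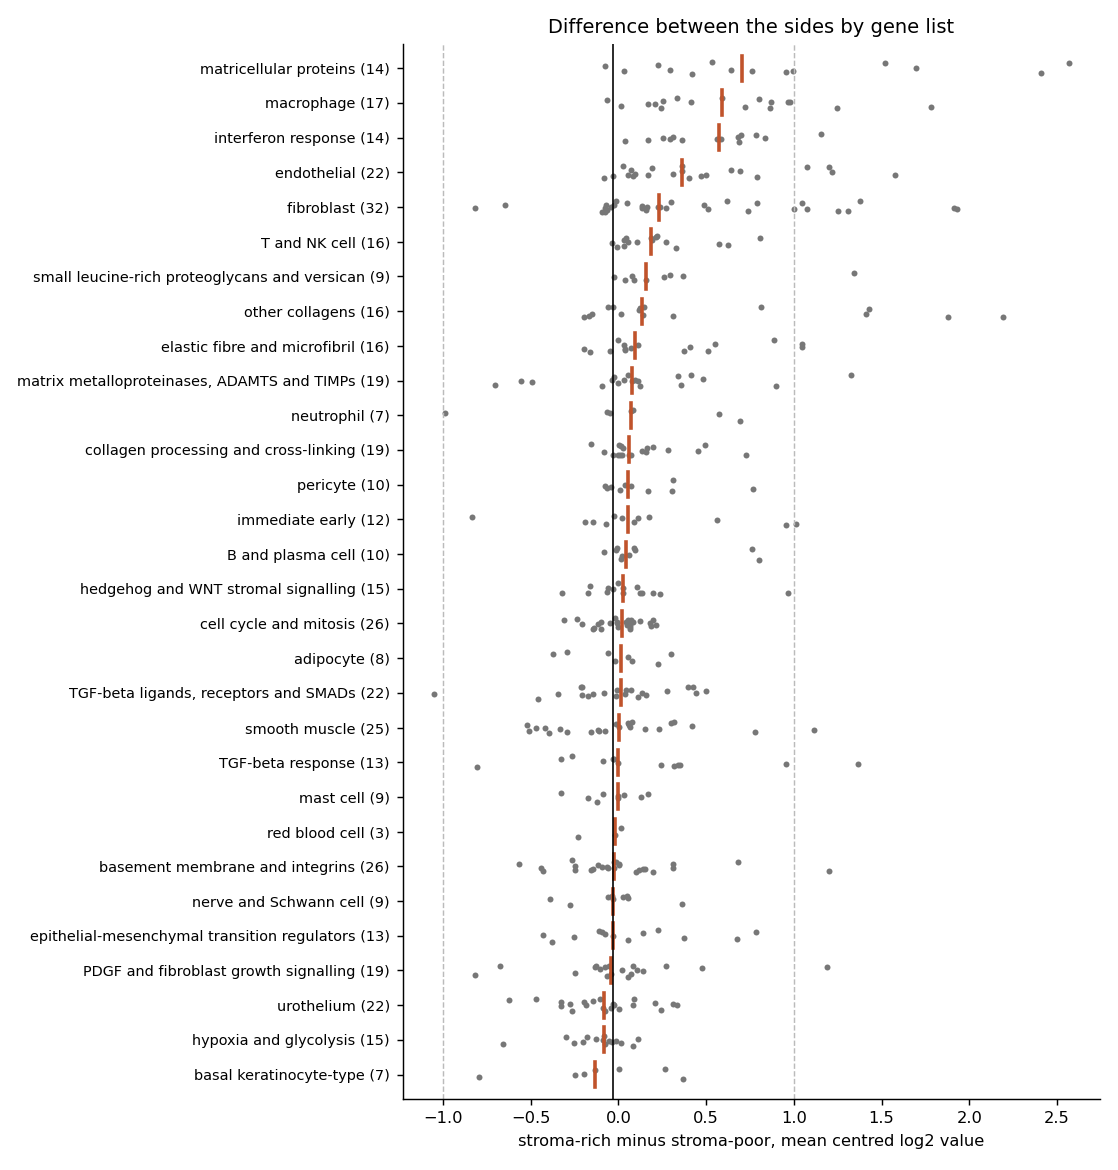
Difference of each measured gene between the sides (stroma-rich minus stroma-poor mean of centred log2 values), by gene list, with the number of measured genes in brackets. Red ticks are list medians, the black line is the median of all 15109 genes (-0.03) and dashed lines mark a fold change of 2. Matricellular (0.70), macrophage (0.59), interferon (0.57) and endothelial (0.36) lists had the highest medians, and smooth muscle (0.00) and cell cycle (0.02) lay at the middle.

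Fibroblast markers outside the score show how far other genes of these cells followed it. The score chose the sides on the same arrays, so the markers are not an independent check. Of 32, 2 were called (*SERPINF1* and *FAP*), 4 did not overlap, 8 were 2-fold or more higher and 0 were 2-fold lower. Over all genes tested, 0.0199% were called higher, 0.185% were higher without overlap and 0.45% were 2-fold or more higher. The median of the 32 was 0.23, with 0.11 within the high and 0.32 within the low Tag class. The mean of the 32 was 0.032 to 0.35 in the rich tumours and -0.51 to 0.027 in the poor ones, so that the sides nearly met without overlapping. The normal bladders stood at 0.60 to 1.59. A negative difference was found for 10 of the 32, among them *PDGFRA*, a receptor of fibroblasts, at -0.82 (SE 0.88). Its values ranged from -1.43 to 1.26 in the rich and from -2.02 to 3.22 in the poor, and its difference was 0.53 on arrays of high Tag signal and -0.97 on those of low Tag signal. The label stroma-rich was set by the score genes, and some fibroblast markers followed the score but not all of them.

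The serine proteases that start the classical complement pathway, which fibroblasts secrete, were among the fibroblast markers. *C1S* was at -0.20, 1.05 and 2.44 in the rich and at -1.04, -0.82 and -0.51 in the poor, with no overlap. Its difference was 1.93 (SE 0.37, limma adjusted p = 0.23). *C1R* was at -0.49, 0.92 and 1.63 against -0.87, -0.71 and -0.33, a difference of 1.38 (SE 0.30). Replicate 12 was the lowest stroma-rich tumour for both genes, and without it both were called, at 2.20 and 1.62. *VIM*, vimentin, an intermediate filament of mesenchymal cells, differed by 1.25 (SE 0.35) with overlap. *THY1* and *PRRX1*, a surface protein and a transcription factor of fibroblasts named after their values were seen, had 0.49 (SE 0.24) and 0.23 (SE 0.16).

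Among growth factor signals to fibroblasts, 1 ligand did not overlap between the sides. *PDGFD*, a platelet-derived growth factor that acts mainly through PDGFRB, was at -0.18, 0.14 and 0.76 in the rich and at -1.25, -1.09 and -0.48 in the poor. Its difference was 1.19 (SE 0.18, limma adjusted p = 0.095), and with Tag class as a block it was called at 1.25 (adjusted p = 0.025). The tumours between the sides ran from -1.33 to 1.70, so *PDGFD* did not follow the score evenly over the 18. The other ligands stood near the middle, with *PDGFA* at -0.05 (SE 0.16), *PDGFB* at 0.10 (SE 0.21) and *PDGFC* at 0.02 (SE 0.16). The receptor *PDGFRB* had 0.27 (SE 0.12). Of the 19 genes of the list 0 were called, and the median of -0.04 turned to 0.04 with quantile normalization. *FGFR3*, a fibroblast growth factor receptor of urothelium, had -0.67 (SE 0.31).

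Transforming growth factor beta is a classical inducer of collagen synthesis, and it signals through a pair of receptor kinases to SMAD proteins. Among 22 ligands, receptors and SMADs 0 were called, 11 had a positive difference and the median was 0.02. The ligands were *TGFB1* at 0.43 (SE 0.21), *TGFB2* at 0.28 (SE 0.41) and *TGFB3* at 0.07 (SE 0.26). The receptors were *TGFBR1* at 0.11 (SE 0.29), *TGFBR2* at 0.40 (SE 0.61) and *TGFBR3* at 0.04 (SE 0.14), none of which separated the sides. The co-receptor *ENG* had 0.50 (SE 0.22) and *ACVRL1* 0.16 (SE 0.08), both known from vessels. *BMP2*, a bone morphogenetic protein, had the lowest difference of the list, -1.05 (SE 0.44, limma adjusted p = 1.00). It was at -2.07, -0.40 and 0.37 in the rich and at -0.47, 0.65 and 1.31 in the poor, with overlap. *BMP4* was at -0.21 (SE 0.45), and the activin chains *INHBA* and *INHBB* were at 0.13 (SE 0.20) and -0.21 (SE 0.14). *SMAD2*, a signal transducer, had -0.46 (SE 0.54).

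Of 13 genes known to respond to that pathway, 0 were called and the median was 0.00. *TGFBI*, a secreted matrix protein, was at -0.68, 0.76 and 1.95 in the rich and -0.82, -0.66 and -0.58 in the poor, and *CCN2*, connective tissue growth factor, differed by 0.95 (SE 0.36). *PMEPA1*, a feedback inhibitor, had -0.81 (SE 0.53). The list thus held values on both sides of 0. Of 15 hedgehog and WNT genes 0 were called, with a median of 0.02, and *DKK3*, a secreted protein of the Dickkopf family, had the highest at 0.96 (SE 0.27).

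Matrix-degrading enzymes and their inhibitors held values on both sides of 0 as well, with 0 of 19 called and a median of 0.08. *MMP2*, a gelatinase made by stromal cells, was at -0.16, 0.67 and 1.18 in the rich and at -0.69, -0.35 and 0.17 in the poor. Its difference was 0.90 (SE 0.23), and its 3 probe sets ran from -0.06 to 1.94. *TIMP1*, an inhibitor of these enzymes, had 1.33 (SE 0.81), and replicate 16 of the poor side was above every other tumour of either side at 2.51. *MMP1*, a collagenase, had -0.70 (SE 0.65).

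Smooth muscle markers were spread evenly around 0. Of 25 markers 0 were called, 0 did not overlap in either direction and the median was 0.00 (-0.03 and 0.16 after scaling to the 75th percentile and quantile normalization). *ACTA2*, smooth muscle actin, also a marker of contractile fibroblasts, ranged from -2.48 to 2.06 in the rich and from -2.49 to 1.18 in the poor, a difference of 0.42 (SE 0.79). *DES*, desmin, and *MYH11*, smooth muscle myosin, had -0.39 (SE 0.50) and -0.42 (SE 0.44). These 3 were named after their values were seen. *CALD1*, caldesmon, made by muscle and by other stromal cells, had the highest difference of the list, 1.11 (SE 0.36), and *PDLIM3* had 0.78 (SE 0.32) and *MYL9* -0.52 (SE 0.76). The mean of the 25 was -0.42 to 0.32 in the rich, -0.41 to 0.81 in the poor and 2.04 to 3.65 in the normal bladders. The normal bladders thus stood apart from both sides on muscle markers, and the ranges of the sides overlapped.

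Vessel markers mostly had positive differences. Of 22 endothelial genes 20 had a positive difference, 4 were 2-fold or more higher, 0 were called and the median was 0.36, with 0.19 within the high and 0.42 within the low Tag class. *PECAM1*, a junction protein of endothelium, was at -0.40, 0.97 and 2.47 in the rich and at -1.35, -0.62 and -0.14 in the poor. Its difference was 1.57 (SE 0.43, limma adjusted p = 1.00). *EMCN*, endomucin, had 1.22 (SE 0.45) and *VWF*, von Willebrand factor, 1.20 (SE 0.52), but *CDH5*, the cadherin of endothelial junctions, named after its values were seen, had 0.05 (SE 0.07). Replicate 12 held the top rich value of all 4. The list mean was -0.15 to 0.94 in the rich and -0.42 to 0.10 in the poor, with overlap, and the median difference without replicate 12 was 0.25. Of 10 pericyte markers 0 were called and the median was 0.06. *RGS5*, which marks pericytes, had 0.77 (SE 0.38), and 0.39 without replicate 12.

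Macrophage markers had 16 of 17 positive differences, with a median of 0.59, 0.47 within the high and 0.67 within the low Tag class. None was called, 1 did not overlap and 2 were 2-fold or more higher. *LYZ*, lysozyme, was at -0.26, -0.04 and 1.04 in the rich and at -2.60, -1.64 and -0.57 in the poor, a difference of 1.78 (SE 0.32, limma adjusted p = 0.16). *C1QC* and *C1QA*, chains of the complement component that binds antibody, had 1.25 (SE 0.53) and 0.98 (SE 0.35) with overlapping sides. The list mean was -0.41 to 0.55 in the rich and -0.70 to -0.21 in the poor, and 1 rich tumour, replicate 13, lay among the poor. Without replicate 12 the median was 0.58.

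Other immune lists had smaller medians. Among 16 T and NK cell genes 14 were positive and the median was 0.19 (0.08 within the high Tag class), with *CCL5* at 0.81 (SE 0.30) and *CD3D* at 0.62 (SE 0.23). Medians were 0.04 for 10 B and plasma cell genes, 0.00 for 9 mast cell genes and 0.07 for 7 neutrophil genes, each of which changed sign under another scaling. *JCHAIN*, the joining chain of secreted antibody, had 0.80 (SE 0.35). The neutrophil genes *S100A8* and *S100A9* had 0.57 (SE 1.30) and 0.70 (SE 1.00), differences smaller than their errors. *LCN2* had the largest absolute difference of the neutrophil list, -0.99, in the other direction. No gene of these lists was called.

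All 14 interferon response genes had a positive difference, and their median was 0.57. It was 0.82 without replicate 12. It was 1.21 with 4 against 4 of low Tag signal, where replicate 17, the tumour with the highest list mean (2.48), enters the rich side. None was called and none failed to overlap. *CXCL10*, a chemokine that attracts T cells, had 1.16 (SE 0.60), *HERC5* 0.83 (SE 0.44) and *IFIT2* 0.78 (SE 0.53). Their mean ran from -1.06 to 1.76 in the rich and from -0.78 to 0.78 in the poor, a spread within each side wider than the difference between them.

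**Figure D4:**
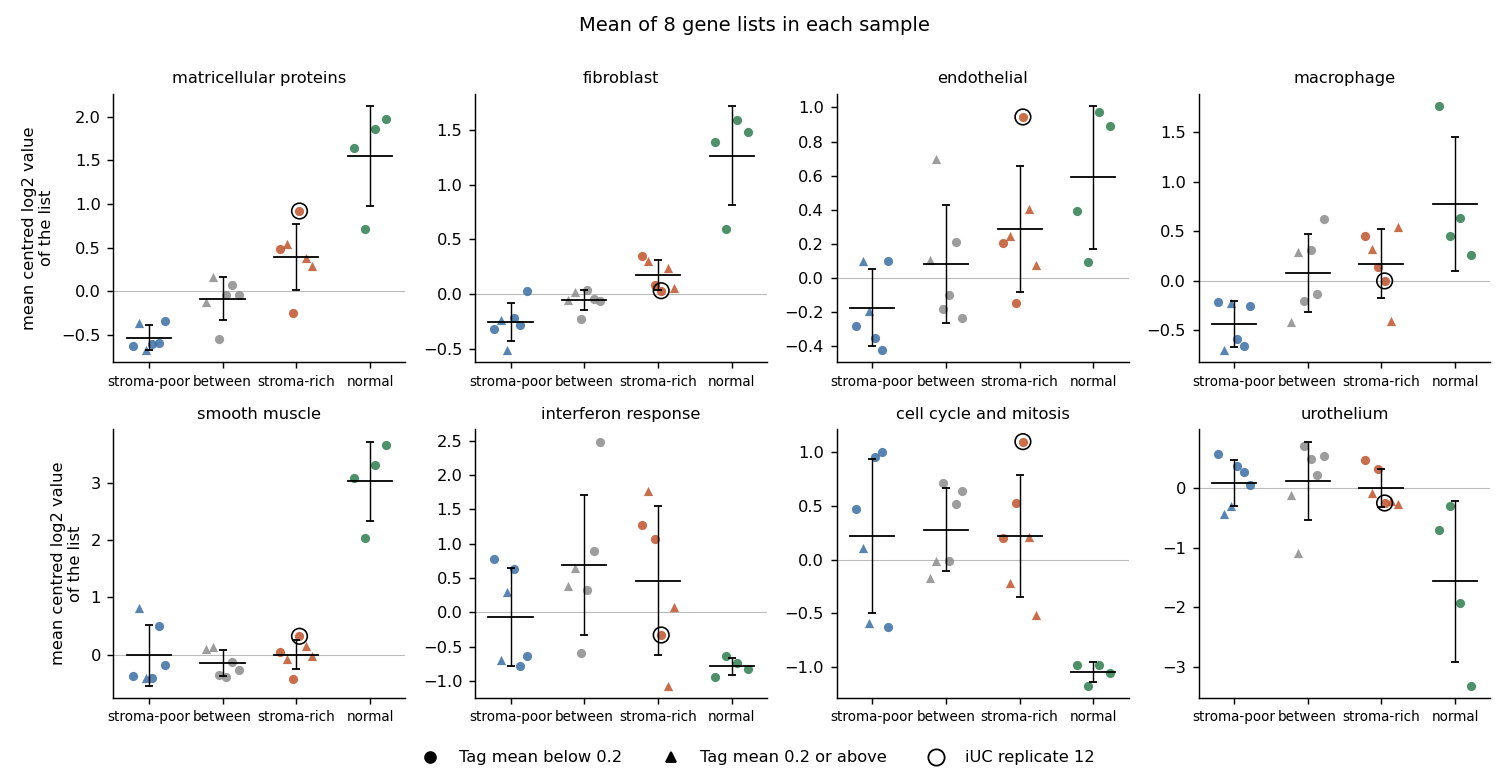
Mean centred log2 value of 8 gene lists in each sample, by side, with triangles for arrays of a Tag mean of 0.2 or above and a ring around iUC replicate 12. Horizontal lines are means and bars are SD. The matricellular and fibroblast means separate the sides, the endothelial and macrophage means overlap, and so do the smooth muscle, cell cycle, interferon and urothelial means.

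Epithelial genes gave no call in either direction. Of 22 urothelial markers 7 had a positive difference (31.8%, against 38.6% of all genes tested) and 0 were called. Their median was -0.08, which was 0.12 after scaling to the 75th percentile and -0.27 after quantile normalization. *CLDN7*, a tight junction protein, had -0.63 (SE 0.48) and *UPK1B*, a uroplakin of the urothelial surface, -0.47 (SE 0.73). *UPK3B*, another uroplakin, went the other way at 0.33, the highest of the list. The list mean was -0.26 to 0.49 in the rich and -0.43 to 0.57 in the poor. Of 7 basal keratinocyte-type genes 3 had a positive difference and 0 were called. *DSG3* (0.37) and *KRT17* (0.27) had the highest differences. *TRIM29*, a marker of basal epithelium, had the lowest difference, -0.79 (SE 0.27). It was at -0.49, -0.35 and 0.31 in the rich and at -0.28, 0.67 and 1.48 in the poor.

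Regulators of epithelial-mesenchymal transition gave 0 calls of 13, a median of -0.03 (0.09 with quantile normalization) and 1 gene without overlap. That gene, *ZEB2*, a repressor of epithelial genes that fibroblasts and macrophages also express, was at -0.07 to 0.74 in the rich and -0.40 to -0.15 in the poor. *SNAI2*, a factor of the same kind, had 0.79 (SE 0.46) with overlap. The list pools inducers of the transition with genes that keep cells epithelial, so its median can hide opposite directions. Of the epithelial kind, *OVOL1* (-0.43), *OVOL2* (-0.38), *ESRP1* (-0.25) and *GRHL2* (-0.11) were negative. *ZEB1* (0.38), *PRRX1* (0.23) and *SNAI1* (0.14) were positive, but *TWIST1* (-0.08), *TWIST2* (-0.09) and *CDH2* (-0.03) were not. All of these but *OVOL1* were named after their values were seen. Cell cycle genes had a median of 0.02 over 26 members with 0 called (-0.20 without replicate 12), and their mean was -0.52 to 1.10 in the rich and -0.63 to 1.01 in the poor. The median was -0.08 for 15 genes of hypoxia and glycolysis (0.07 with Tag class as a block), 0.06 for 12 immediate early genes, -0.03 for 9 nerve genes, 0.02 for 8 adipocyte genes and -0.02 for 3 red blood cell genes, with 0 called in each. The hypoxia list mean was -0.79 to -0.32 in the tumours of high Tag signal and 0.11 to 0.70 in those of low Tag signal, whatever the side. The mast cell list mean also split by Tag class, at 0.096 to 0.39 against -0.17 to 0.079. For proliferation the ranges of the sides almost coincided.

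Some genes without overlap belonged to no list and were named after their values were seen. *CAV1*, caveolin, the coat protein of membrane caveolae, was at -0.19 to 2.48 in the rich and -2.58 to -0.20 in the poor, with a difference of 2.06 (SE 0.48). *ENPP2*, autotaxin, a secreted enzyme that makes lysophosphatidic acid, differed by 1.27 (SE 0.29). *HSD11B1*, which regenerates active glucocorticoid, differed by 0.85 (SE 0.13, limma adjusted p = 0.10), and *LMO2*, a transcription cofactor of blood and endothelial cells, by 1.03 (SE 0.20). The lower side held smaller differences. *CNR1*, a cannabinoid receptor, was at -0.22 to 0.25 in the rich and 0.28 to 1.48 in the poor, a difference of -0.77 (SE 0.18, limma adjusted p = 0.56). *GPRC5C*, an orphan receptor, had -0.48 (SE 0.14).

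The whole range of the score was then read over all 18 iUC samples, with Tag class in the model. Of 15109 genes, 5 had a called positive slope, 0.0331% of those tested, and 0 a called negative one, where a call needed a slope of at least 0.5 on the log2 scale for each unit of score, at the same limit of adjusted p. They were *SERPINF1* (slope 0.89, SE 0.07), *FAP* (0.61, SE 0.07), *VCAM1* (1.44, SE 0.21), *COL6A1* (0.62, SE 0.07) and *VCAN* (0.62, SE 0.09), with limma adjusted p of 1.51e-05, 0.00081, 0.011, 0.00081 and 0.0056. The 3 genes called between the sides were all among them. The slopes use the score that chose the sides and the same arrays, so this overlap is not a separate result. The 10 genes outside the score whose values followed it most closely had Pearson r of 0.93 (*SERPINF1*), 0.90 (*FAP*), 0.85 (*VCAM1*), 0.85 (*SEPTIN4*), 0.81 (*VCAN*), 0.80 (*CDH11*), 0.80 (*FBN1*), 0.79 (*SPARC*), 0.78 (*COL6A1*) and 0.77 (*C1S*). These are descriptions over 18 arrays that also share their processing with the score genes. *CDH11* is a cadherin of mesenchymal cells and *SEPTIN4* a cytoskeletal GTPase, and their differences between the sides were 0.79 (SE 0.22) and 1.04 (SE 0.19).

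Restricting the comparison to the 11 iUC arrays of low Tag signal left 4 tumours on each side, replicates 12, 8, 2 and 17 against 14, 16, 15 and 1. No gene was called (0%), and 515 had an unadjusted p under 0.05, 3.41% of those tested. *SERPINF1* differed by 1.61 (SE 0.23), *FAP* by 1.11 (SE 0.16), *VCAM1* by 2.35 (SE 0.36) and *PDGFD* by 1.51 (SE 0.22), with limma adjusted p of 0.35, 0.35, 0.36 and 0.35. All 4 differences kept their direction, and the sides share 3 and 4 of their tumours with those of 6 against 6. A test of whether the difference between the sides itself differed between Tag classes was added after the values were seen. It gave 0 genes at an adjusted p of 0.05 in limma. At an unadjusted p under 0.05 it gave 298 of 15109, fewer than the 320 of the main comparison.

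iUC replicate 12 stood apart within the rich side. It was the highest or the lowest of the 6 rich tumours for 49.1% of the genes, against 15.5% to 41.7% for the other 5. It held the highest rich value for 22.3% of all genes, for 13 of 22 endothelial, 16 of 26 basement membrane and integrin, 20 of 26 cell cycle and 6 of 16 collagen genes outside the score. Among these were *COL4A1* at 2.87, *LAMA4* at 3.05 and *EMCN* at 2.68, and of 10 pericyte genes it was highest for 4, with *RGS5* at 2.45. It was the lowest rich tumour for 26.8% of all genes, for 2 of the 22 endothelial, 4 of the 16 collagen and 14 of 32 fibroblast genes. For 11 of the 32 fibroblast genes it was the highest. It lay among or below the stroma-poor tumours for *C1R* (-0.49) and *TGFBI* (-0.68). Without it 8 genes were called, the 3 above and *C1S*, *C1R*, *DPT*, *PTGS1* and *ADAMDEC1*. *ADAMDEC1*, a secreted metalloprotease of stromal and myeloid cells, was at -1.70 in replicate 12 and at 1.33 to 2.93 in the other 5, against -1.31 to -0.36 in the poor. *PTGS1*, cyclooxygenase 1, was at -1.49 in replicate 12 and at 0.84 to 1.70 in the others. *DPT*, dermatopontin, a matrix protein that binds decorin, was at -0.54 there and at 0.68 to 1.21 in the others. *ADAMDEC1*, *PTGS1* and *DPT* were named after their values were seen.

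**Figure D5:**
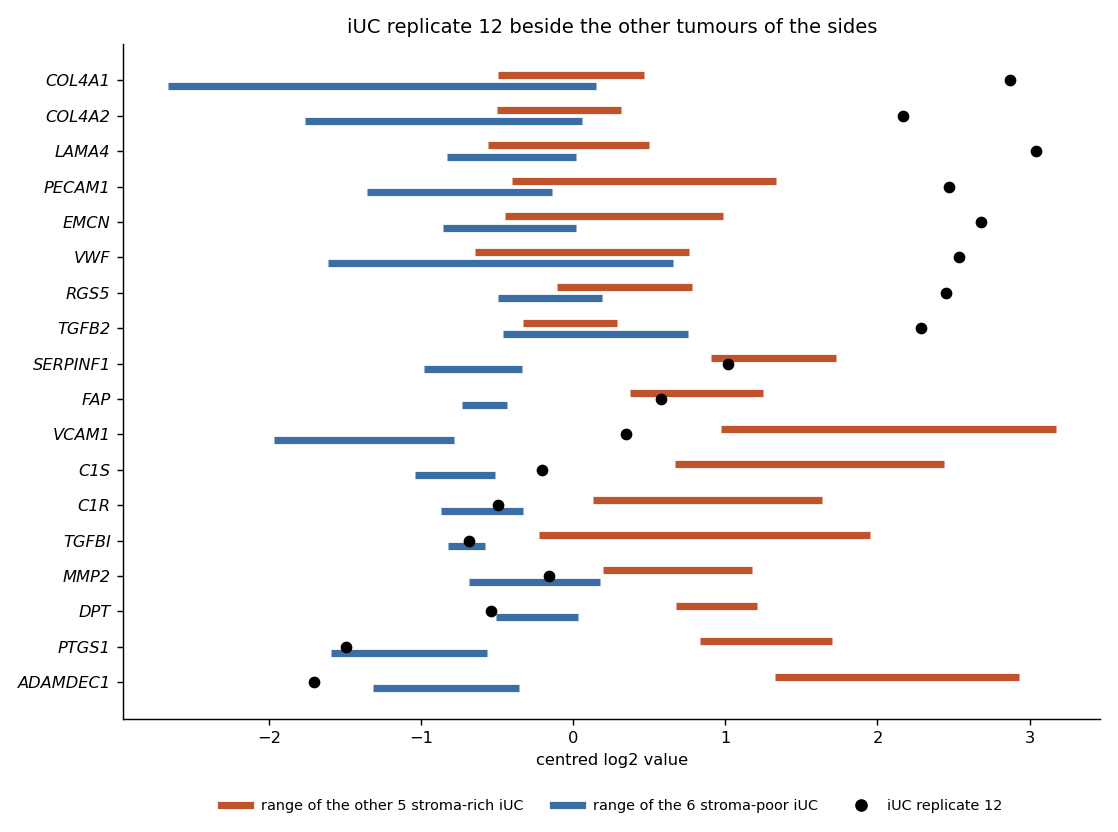
Centred log2 values of 18 genes in iUC replicate 12 (black points), with the range of the other 5 stroma-rich tumours (red bars) and of the 6 stroma-poor tumours (blue bars). Replicate 12 lies above both ranges for the genes at the top, such as *COL4A1* (2.87), and within or below the stroma-poor range for *PTGS1* (-1.49) and *ADAMDEC1* (-1.70).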

How the data were processed

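The authors processed Affymetrix Canine 2.0 arrays of 18 iUC and 4 normal bladder samples, made from 5 µg of RNA each, in GeneSpring GX 12.6.1, and deposited log2 values of 43035 probe sets, each centred on its median over the 22 arrays. For the summarisation of probes and the scaling between arrays no method is given in the sources used here, and the number of arrays limits the precision. Of 42924 probe sets left without controls, 29254 had 1 gene symbol in the platform annotation, and averaging the probe sets of a gene gave 15115 genes. The score genes had 16 probe sets in all. The sides were tested by limma 3.58.1 (R 4.3.3) on the other 15109 genes, with Benjamini-Hochberg adjustment over all of them. The score was also fitted over all 18 iUC samples with Tag class, and the 4 highest were set against the 4 lowest among arrays of low Tag signal. Tables and figures were made with Python 3.11.15, pandas 2.3.3 and matplotlib 3.10.9, and the fits were tested on simulated data.

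Genes could be named if called, if among the 3 list members of largest difference, if a ligand or receptor of the PDGF or TGF-beta list, or if among the 10 most like the score. Genes named on other grounds are marked as named after their values were seen. Not every gene that met a condition was named. Those left out include *FOS* (1.01), *DUSP1* (0.96), *MYC* (-0.84), *XBP1* (0.76), *LAMA3* (0.68) and *ADM* (-0.66). The members, lists and tests were chosen with earlier results of these data known. Alternatives covered Tag signal, scaling, side size, score, probe sets, array weights and each tumour left out. Sequences and coordinates were not used here.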

Additional observations from a re-analysis of the deposited data

Results flagged for a closer look

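A single sample stood far from the rest of its side or of the normal bladders in 28 of the 285 sets of values examined. Chance sets apart about 1 in 20 sets of independent values, but most of these sets held genes chosen for this text. *ADAMDEC1*, *PTGS1* and *DPT* were chosen because they were called once replicate 12 was left out. The count therefore cannot be set against that rate. In 12 of the 28 sets the sample was iUC replicate 12 in the rich side. It was above the other 5 for *COL4A1* (2.87, others up to 0.46), *COL4A2* (2.17, others up to 0.31), *LAMA4* (3.05, others up to 0.50), *RGS5* (2.45, others up to 0.78), *TGFB2* (2.29, others up to 0.29), *BMP4* (1.67, others up to 0.02), *INHBA* (1.02, others up to 0.20), *S100A9* (2.44, others up to -0.32) and *TRIM29* (0.31, others up to -0.25). It was below the other 5 for *ADAMDEC1* (-1.70, others from 1.33), *PTGS1* (-1.49, others from 0.84) and *DPT* (-0.54, others from 0.68).

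On the poor side replicate 16 was above the other 5 for *VCAM1* (-0.79), *FBLN1* (1.48), *TIMP1* (2.51), *PMEPA1* (1.99) and *INHBA* (0.44). Replicate 15 was above them for *EFEMP1* (0.15) and *PDGFC* (0.73) and below them for *CD3D* (-0.43). On the rich side replicate 2 was above the others for *LYZ* (1.04) and replicate 8 below them for *PDGFRB* (-0.13). Among the normal bladders, replicate 1 stood apart for *LOXL2* (0.12), *MMP1* (4.18) and *CDH5* (0.087), and replicate 2 for *EFEMP1* (2.32), *TGFBR3* (-0.16) and *HERC5* (3.55).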

How the results depend on the processing

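Between the sides, 3 genes were called higher in limma. The count was 5 with Tag class as a block, 6 with the Tag mean as a covariate, 1 with 5 against 5, 0 with 4 against 4 and 0 with 9 against 9 (189 and 156 genes at an unadjusted p under 0.05). Array weights gave 57 higher and 33 lower, with weights from 0.26 to 5.24, the highest for replicate 6. Leaving out each tumour gave 2 to 8, with 8 only without replicate 12, and 0 lower. Of alternatives chosen after seeing the data, the high Tag class alone gave 0 (752 at an unadjusted p under 0.05), the low Tag class alone 1 (*SERPINF1*), and the block without replicate 12 gave 11. The cause was not tested in any of these. Over all 18 tumours 5 slopes were called, 3 without Tag class, 11 with the Tag mean, and 4 to 15 with each tumour left out (10, 15, 8 and 8 without replicates 4, 12, 13 and 16). Among arrays of low Tag signal the count of 0 became 1 without replicate 17 and was 0 in every other alternative. *SERPINF1*, *FAP* and *VCAM1* kept their direction in all 32 alternatives and were called in 29, 27 and 17 of them. Of 30 list medians, 19 kept their sign under both other scalings, and 15 kept it with the Tag block, within both Tag classes and with 4 against 4 of low Tag signal. No paired analysis was possible because the sides lie within one group, in which each replicate number occurs once. Values centred on a median give no level, so a filter on dim probe sets could not be made, and 6 arrays a side limit what can be called.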
